A study of Mus musculus with 8 samples.

Results

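The 31 genes described here encode proteins that carry a cell through mitosis. They were taken as a fixed list of gene symbols, each symbol matched 1 row of the table of raw counts, and all 31 of the 15288 genes in that table were therefore available. All 31 passed the filter on low counts, with 1092 counts or more in every library. By role the list held 8 kinases, 3 cyclins, 2 genes of the ubiquitin pathway that ends mitosis, 4 kinetochore and centromere genes, 4 spindle motors, 6 spindle microtubule-binding proteins, 2 cytokinesis genes and 2 genes of the mitotic chromosome. Each gene was counted under a single role, although several of the proteins act in more than 1.

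The RNA came from a mouse cell line, IMCD, which the labels describe as duct cells of the kidney and which is named after the inner medullary collecting duct, the last stretch of the renal tubule. Cells had been grown to confluence in high-glucose DMEM with serum and antibiotics. They were then kept for 12 h in DMEM without serum, either with nothing added (control, 4 libraries) or with 100 mmol NaCl (4 libraries), where the labels give the amount without a volume. All 8 libraries thus shared confluence and the absence of serum. The labels number the libraries 1 to 4 in the control group and 5 to 8 in the NaCl group and do not say what the order stands for. They also do not say whether the libraries of a group came from separate cultures, so p-values measure the spread between these libraries, which may be technical.

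Mitosis is driven by CDK1 bound to cyclin A or cyclin B, and by the Polo and Aurora kinases that act beside it. Chromosomes attach to spindle microtubules at kinetochores. A checkpoint keeps the anaphase-promoting complex (APC/C) from degrading cyclin B until all are attached, after which cyclin B is degraded and the cell divides. Transcripts of these genes accumulate together in G2 and M phase in dividing cells, so that in a mixed population their level follows the share of cells in these phases as well as the amount of RNA per cell. In bulk samples fewer cells in a phase and less RNA per cell cannot be told apart.

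Libraries held between 35.29 and 47.57 M counts (M, 1000000), and the single library counts of the members ran from 1092 (Ttk) to 24713 (Top2a), where counting error alone is 3.03% and 0.636%. No pair of replicates was a copy of the other, because the spread between replicates was at least 5.24 times the sampling variance over genes. It was widest between the first and last library of each group, at 20.85 for control replicates 1 and 4 and 22.97 for NaCl replicates 5 and 8. Markers of the labelled cell type were mixed. Of 16 listed markers of tubule and collecting duct epithelium 15 were in the table, with Krt7 at 338 and Pax8 at 160 CPM (counts per 1000000, scaled with TMM factors) in control, but the water channel genes Aqp2 and Aqp3 and the cadherin gene Cdh1 had at most 0.535 CPM in either group. Col1a1, a collagen gene usual in fibroblasts, had 2492 CPM in control. The summed level of the 6 fibroblast markers was 2820 to 3635 CPM over the 8 libraries, that of the epithelial markers 1121 to 1491 CPM. In control Col1a1 made up most of the fibroblast sum, and the lowest of the 6 control means was 2.38 CPM. With NaCl, 4 of the 13 epithelial markers tested were higher and 2 lower at an edgeR adjusted p-value under 0.05. Of the 6 fibroblast markers 1 was higher and 2 were lower, where 16.9% and 17.2% of all genes were higher and lower. Of the 2 leukocyte markers in the table, Ptprc rose from a mean of 4.05 CPM in control to 13.5 CPM with NaCl (edgeR adjusted p = 5.91e-10), and Cd68 had 2.41 and 1.69 CPM (adjusted p = 0.0573). They summed to 5.95 to 7.19 and 14.9 to 15.3 CPM over the libraries of the groups, and the 1 endothelial marker had at most 0.797 CPM.

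The mitotic machinery was transcribed in every library. Per kilobase of annotated exon, the control level was highest for Cdc20, the APC/C activator, at 81.4 CPM per kb, and then for Top2a, the topoisomerase that untangles chromosomes, at 51.3 CPM per kb. The lowest levels were those of the checkpoint kinase gene Ttk (7.06 CPM per kb) and the kinetochore gene Cenpf (8.65 CPM per kb). The summed level of the 31 genes was 4279, 3906, 3646 and 3526 CPM in control replicates 1 to 4 and 3771, 3775, 3665 and 3373 CPM in NaCl replicates 5 to 8. The group means were 3839 ± 333 and 3646 ± 189 CPM (SD, n = 4 each), and the groups overlapped. Control replicate 1 was the highest of the 8 libraries for 28 of the 31 genes, where this library was the highest for 16.1% of all genes. NaCl replicate 8 was the lowest for 23 of the 31, against 13.9% of all genes.

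**Figure D1:**
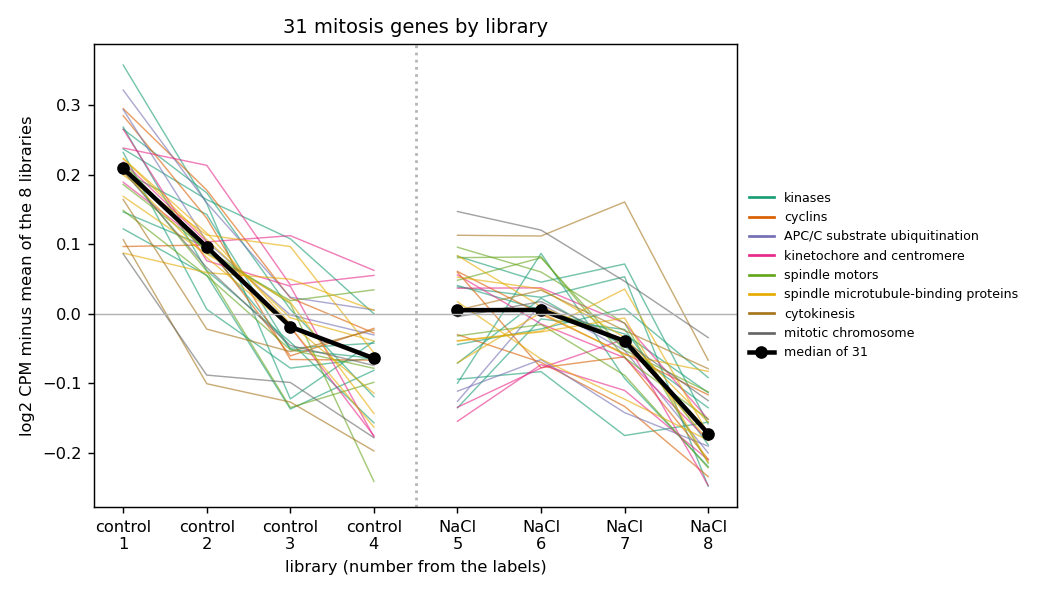
Each thin line is 1 of the 31 mitosis genes, coloured by role, and the y axis gives its log2 CPM minus its mean over the 8 libraries, with libraries in the order of their number on the x axis. The black line is the median of the 31 genes, which runs from 0.21 to -0.064 over control replicates 1 to 4 and from 0.0050 to -0.17 over NaCl replicates 5 to 8.

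The comparison the study was built for is NaCl against control. Of the 31 genes, 7 were lower with NaCl and none was higher in edgeR's quasi-likelihood test at an adjusted p-value under 0.05. The 7 were Cenpa, Bub1, Ube2c, Birc5, Ccnb1, Kif23 and Gtse1, and their decreases were between 11.6% and 17.4%. Over all 14024 genes tested, 17.2% were called lower and 16.9% higher (34.1% in all). Without control replicate 4 the members called lower numbered 13, with Aurkb, Ttk, Cdc20, Cenpe, Tpx2 and Tacc3 added, where 16.7% of all genes were called lower. Without control replicate 1, 6 were lower and 2 higher, where 15.9% and 15.5% of all genes were. Without NaCl replicate 8 they were again 6 and 2, where 15.9% and 14.9% of all genes were. At an unadjusted p-value under 0.05 the members numbered 12, of which 2 were higher, where the same holds for 43.3% of all genes. The log2 ratio of NaCl to control (the fitted log2 fold change) was below 0 for 28 of the 31 genes, against 49.6% of all genes, with a median of -0.099 against 0.0029 over all genes tested. In 6 of the 31 the NaCl libraries all lay below the control libraries, as they did for 16.9% of all genes. In none did they all lie above, against 16.5%, and in 25 the groups overlapped, where 33.4% of all genes had separate groups in either direction. In 27 of the 31 genes the range over the 4 control libraries, on the log2 scale, was wider than the difference between the group means, which was so for 66.1% of all genes.

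Among the kinases, 1 of 8 was called. Bub1 (ENSMUSG00000027379), which recruits checkpoint proteins to kinetochores, had 84.99, 80.8, 77.7 and 72.1 CPM in control replicates 1 to 4 and 67.6, 68.1, 63.9 and 64.7 CPM in NaCl replicates 5 to 8. Every NaCl library lay below every control library. The group means were 78.9 ± 5.42 and 66.1 ± 2.07 CPM (SD, n = 4 each), a log2 ratio of -0.26 (SE 0.048; edgeR adjusted p = 6.01e-04). Its checkpoint partner Bub1b had a log2 ratio of 0.02 and an adjusted p-value of 0.849. The mitotic entry kinases Cdk1 (-0.08), Plk1 (-0.07) and Aurka (-0.19), the passenger kinase Aurkb (-0.12), the centrosome kinase Nek2 (-0.05) and the checkpoint kinase Ttk (-0.17) did not pass the test, with adjusted p-values from 0.137 to 0.643. Of these, Aurkb (adjusted p = 0.0412) and Ttk (0.0250) passed in edgeR without control replicate 4, and Aurka (0.0338) without control replicate 3.

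Among the cyclins, 1 of 3 was called. Ccnb1 (ENSMUSG00000041431), the cyclin B that drives entry into mitosis, had 141, 130, 117 and 113 CPM in the control and 113, 109.8, 105 and 97.996 CPM in the NaCl libraries, so that the lowest control library and the highest NaCl library were nearly equal. The log2 ratio was -0.24 (SE 0.069; edgeR adjusted p = 0.020), and the call was lost without control replicate 2 (adjusted p = 0.0544). An annotated transcript of Ccnb1 is shared along its whole length, at 98% identity, with pseudogenes such as Ccnb1-ps, so its counts are uncertain. The log2 ratios were -0.15 for Ccna2, the cyclin A of S phase and mitosis, and -0.06 for Ccnb2, and neither passed the test. In the ubiquitin pathway, Ube2c (ENSMUSG00000001403), the conjugating enzyme of the APC/C, had 125, 112, 102 and 101 CPM in the control and 92.8, 95.8, 90.9 and 87.9 CPM in the NaCl libraries. The groups did not overlap, and the log2 ratio was -0.26 (SE 0.062; edgeR adjusted p = 0.0053). Exons of Ube2c overlap those of Tnnc2 on the opposite strand over 22.8% of their length, but Tnnc2 had at most 12 counts in a library. Cdc20 had a log2 ratio of -0.19 and an edgeR adjusted p-value of 0.0649. It was called lower by DESeq2 (0.0223) and limma-voom (0.0419), and in edgeR after control replicate 3 (0.0437), or control replicate 4 (0.0280), or NaCl replicate 6 (0.0445) was left out.

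Of the 4 kinetochore and centromere genes, 2 were called. Cenpa (ENSMUSG00000029177), the histone H3 variant that marks centromeres, had 78.9, 77.6, 68.9 and 69.5 CPM in control and 60.1, 63.6, 62.0 and 57.9 CPM in NaCl libraries. All NaCl libraries lay below all controls. The means were 73.7 ± 5.27 and 60.9 ± 2.48 CPM (SD, n = 4 each), a log2 ratio of -0.28 (SE 0.051; edgeR adjusted p = 4.92e-04), the lowest of the 31. Birc5 (ENSMUSG00000017716), survivin, which places the Aurora B complex at centromeres, had 64.8, 59.9, 60.2 and 58.2 CPM in control and 50.8, 52.8, 54.3 and 47.0 CPM in NaCl libraries, again without overlap. Its log2 ratio was -0.25 (SE 0.051; adjusted p = 0.0013). The kinetochore motor gene Cenpe (-0.11) and Cenpf (-0.05) did not pass the test, and Cenpe passed without control replicate 4 (adjusted p = 0.0403).

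Of the 4 spindle motors, Kif23 alone was called. Kif23 (ENSMUSG00000032254), a kinesin of the central spindle that is needed for cytokinesis, had 100.2, 91.6, 87.4 and 88.3 CPM in control and 84.3, 85.3, 81.1 and 74.0 CPM in NaCl libraries. The groups were separate, with a log2 ratio of -0.18 (SE 0.052; edgeR adjusted p = 0.0138). Without both control replicate 1 and NaCl replicate 8 it was -0.092 and no longer called (adjusted p = 0.121). The log2 ratios of the bipolar spindle kinesin Kif11 (-0.04), the microtubule depolymerase Kif2c (-0.02) and the midzone kinesin Kif20b (-0.03) were smaller than their standard errors. Among the 6 microtubule-binding proteins, Gtse1 (ENSMUSG00000022385), which stabilises spindle microtubules, had 63.6, 59.9, 59.2 and 53.3 CPM in control and 56.1, 53.0, 50.9 and 48.9 CPM in NaCl libraries. NaCl replicate 5 lay above control replicate 4. The log2 ratio was -0.18 (SE 0.056; adjusted p = 0.0211), and leaving out 1 of control replicates 1 and 2 or of NaCl replicates 7 and 8 ended the call, with adjusted p-values of 0.0601, 0.0525, 0.0626 and 0.0646. Tpx2, the activator of Aurora A, had -0.14, Tacc3 -0.11, Nusap1 -0.10, Hmmr -0.07 and Ckap2l -0.06, and none of these passed the test. Tpx2 (adjusted p = 0.0277) and Tacc3 (0.0181) passed without control replicate 4.

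Ect2, Mki67 and Bub1b were the members with a log2 ratio above 0. Ect2 (ENSMUSG00000027699), the exchange factor that activates RhoA at the division plane, had 118, 102, 100.5 and 95.7 CPM in control and 119, 119, 123 and 105 CPM in NaCl libraries. NaCl replicate 8 lay below control replicate 1 and above the other controls. The log2 ratio was 0.16 (SE 0.065; edgeR adjusted p = 0.0843). Mki67 (ENSMUSG00000031004), which coats mitotic chromosomes and encodes the Ki-67 proliferation antigen, had 412, 366, 363 and 343 CPM in control and 430, 422, 401 and 379 CPM in NaCl libraries. Here NaCl replicates 7 and 8 lay below control replicate 1. The log2 ratio was 0.14 (SE 0.054; adjusted p = 0.0653). Both genes passed the test without control replicate 1 (adjusted p = 0.0021 for Ect2 and 0.0019 for Mki67) and without NaCl replicate 8 (0.0178 and 0.0248). With all 8 libraries DESeq2 called Mki67 higher (0.0483). The other cytokinesis gene, Anln, which encodes the ring scaffold anillin, had a log2 ratio of -0.03, and Top2a had -0.08.

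**Figure D2:**
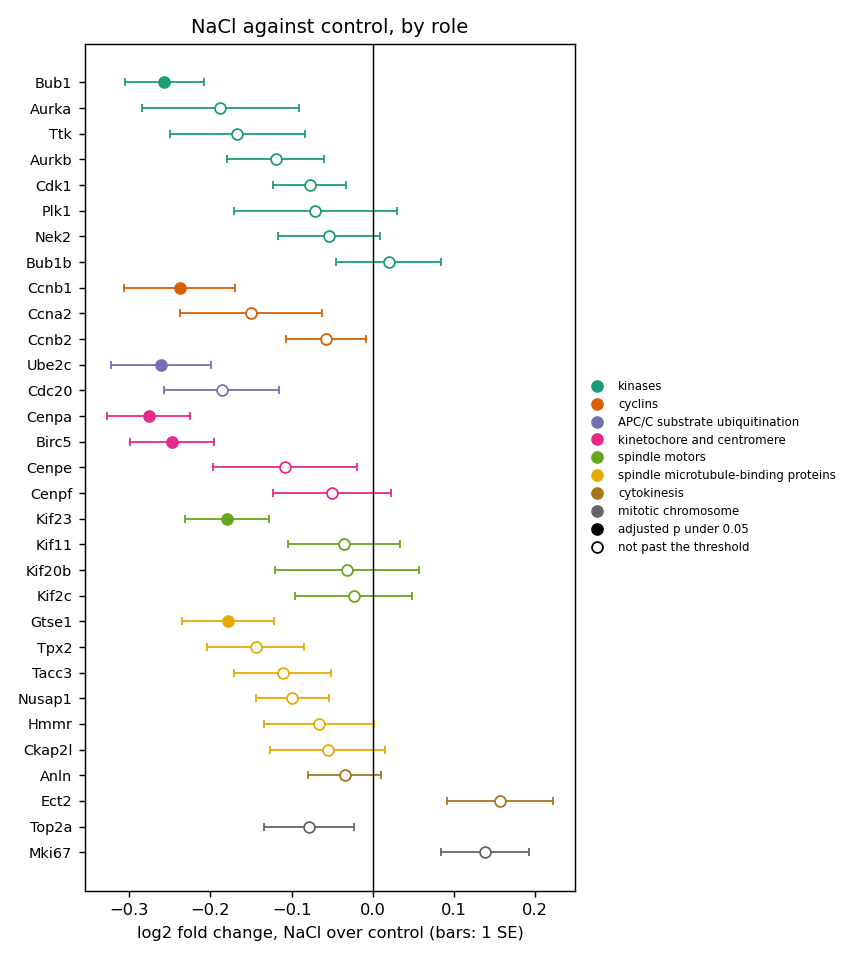
Points give the log2 ratio of each mitosis gene, NaCl over control, with bars of 1 SE, grouped and coloured by role. Filled points are the 7 genes with an adjusted p-value under 0.05, all on the lower side, and the open points of Ect2 (0.16) and Mki67 (0.14) lie furthest to the right.

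**Figure D3:**
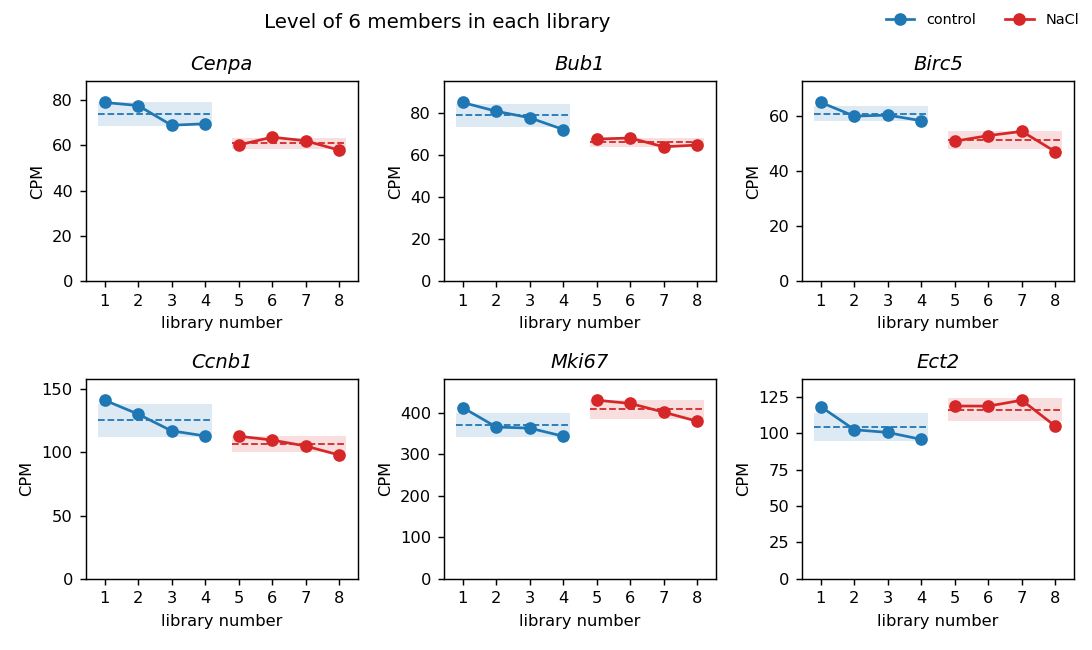
CPM (y axis, from 0) of 6 mitosis genes against the library number (x axis), with control in blue and NaCl in red, dashed lines at the group means and shading of 1 SD (n = 4 each). Cenpa, Bub1 and Birc5 are separate between the groups, the groups of Ccnb1 nearly touch, and Mki67 and Ect2 have higher NaCl means with overlapping groups.

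The position of each library inside its group was examined next. The slope of log2 expression on the library number, centred within its group, was fitted together with the group for all genes. The slope was below 0 for all 31 genes, against 51.1% of all genes, and 26 of the 31 fell along the library number with an edgeR adjusted p-value under 0.05. Over all genes tested 6.22% fell and 6.95% rose by the same rule (13.2% in all). The 26 comprised 6 of 8 kinases, all 3 cyclins, both ubiquitin pathway genes, 2 of 4 kinetochore and centromere genes, all 4 spindle motors, 5 of 6 microtubule-binding proteins, both cytokinesis genes and both chromosome genes. The genes that did not pass were Cdk1, Aurka, Cenpa, Birc5 and Nusap1, with adjusted p-values from 0.0673 to 0.296. Of these, Aurka passed by DESeq2 (0.0301) and limma-voom (0.0233), and Cdk1 (0.0176) and Cenpa (0.0272) passed in edgeR with library totals in place of TMM factors. Without NaCl replicate 5, Cdk1 (0.00816), Aurka (3.30e-05) and Cenpa (0.00872) passed. Aurka also passed without control replicate 3 (0.0481) and Cdk1 without NaCl replicate 7 (0.0420). The median slope was -0.072 log2 units per library, and the slopes ran from -0.11 to -0.029.

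The 5 genes with the lowest p-values for the slope were Cenpe, Ccna2, Kif20b, Ccnb1 and Kif11. Cenpe, which moves chromosomes to the spindle equator, had 168, 147, 143 and 123 CPM in control replicates 1 to 4 and 145, 138, 133 and 123 CPM in NaCl replicates 5 to 8. It fell at every step in both groups, with a slope of -0.11 (SE 0.015; edgeR adjusted p = 3.99e-06). Ccna2 had 195, 176, 153 and 153 CPM in control and 167, 152, 154 and 139 CPM in NaCl libraries, a slope of -0.10 (adjusted p = 8.31e-06). Part of this gene, 12.5% of its exon length, overlaps Exosc9 on the other strand. Kif20b had 88.1, 82.7, 78.3 and 65.6 CPM in control and 81.9, 82.0, 74.2 and 69.8 CPM in NaCl libraries, a slope of -0.11 (adjusted p = 3.12e-05). Kif11 had 144, 135, 125 and 123 CPM in control and 139, 135, 128 and 112 CPM in NaCl libraries, a slope of -0.089 (adjusted p = 4.26e-05). The slope of Ccnb1, whose values are given above, was -0.091 (adjusted p = 4.17e-05). In these genes control replicate 1 was the highest and NaCl replicate 8 the lowest of all 8 libraries except for Kif20b, where control replicate 4 was the lowest, and the level of NaCl replicate 5 was above that of control replicate 4 except for Ccnb1, where they were nearly equal.

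In the control group, replicate 1 exceeded replicate 4 for all 31 genes, by a median of 1.23-fold with a range from 1.06 to 1.36. In the NaCl group, replicate 5 exceeded replicate 8 for all 31, by a median of 1.13-fold with a range from 1.01 to 1.24. The medians of these ratios over all genes were 0.999 and 1. CPM fell at every step of the library number for 21 of the 31 genes in the control and 9 of the 31 in the NaCl group, against 9.16% and 7.09% of all genes. Fitted within each group, the slope was called for 26 of 31 genes in control, where 4.42% of all genes fell and 4.93% rose (9.36% in all), and for 7 of 31 in NaCl libraries, where 1.06% of all genes fell and 3.02% rose (4.07% in all). The median slopes were -0.098 in control and -0.056 in NaCl libraries. The difference of the slopes was tested directly, and no member passed (lowest adjusted p = 0.288, for Tacc3), in edgeR, DESeq2 or limma-voom. At an unadjusted p-value under 0.05 in edgeR the members numbered 9, against 7.76% of all genes, and with adjustment 0.0927% of all genes passed, 0.057% with the higher and 0.0357% with the lower slope in NaCl libraries. The number called on the common slope was 14 without control replicate 1, 18 without NaCl replicate 8 and 2 without both, where 2.32%, 3.29% and 0.292% of all genes were called falling.

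**Figure D4:**
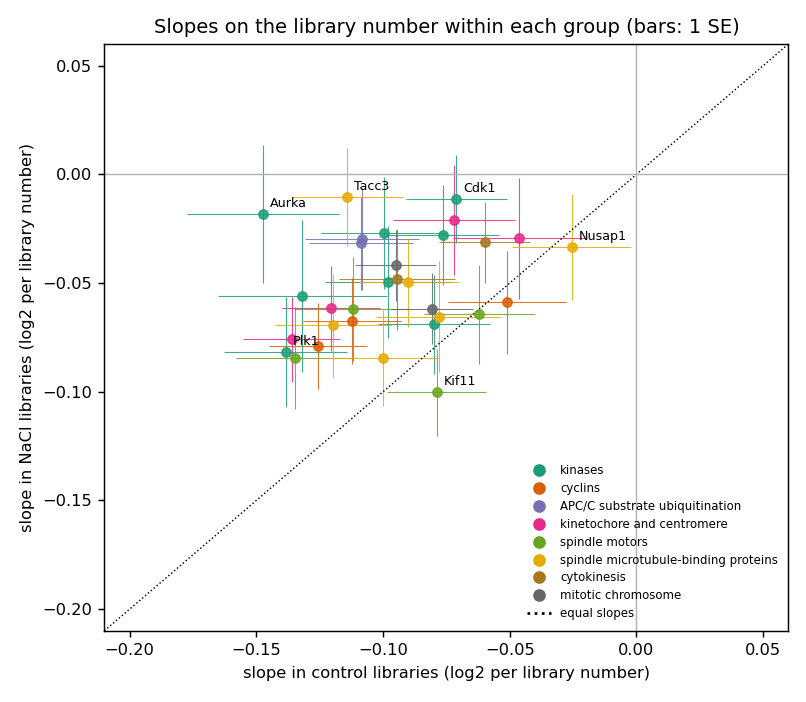
Each point is 1 mitosis gene, coloured by role, with its slope on the library number in the control libraries on the x axis and in the NaCl libraries on the y axis (log2 per library number, bars of 1 SE). All 31 points lie below 0 on both axes, and 27 lie above the dotted line of equal slopes, although the difference passed the test for none.

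Other measures moved along the library number as well. Of the 13 epithelial markers tested, 7 rose with the library number at an edgeR adjusted p-value under 0.05, among them the keratin genes Krt7 (slope 0.10) and Krt18 (0.11), and none fell, where 6.95% of all genes rose and 6.22% fell. Of the 6 fibroblast markers, 5 had slopes below 0, and 1, the receptor gene Pdgfrb (-0.065), fell. Fitted within each group, the slopes were below 0 for all 6 in control and for 2 in NaCl libraries, with medians of -0.070 and 0.034. The summed level of the epithelial markers was 1121, 1180, 1334 and 1416 CPM in control and 1301, 1336, 1375 and 1491 CPM in NaCl libraries. The share of counts from mitochondrially encoded genes was 1.43, 1.46, 1.38 and 1.32% in control and 1.65, 1.48, 1.47 and 1.39% in NaCl libraries. Total counts were highest in control replicate 1 and lowest in NaCl replicate 5. The part of these measures in the slopes of the mitosis genes was not tested.

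The group comparison was therefore fitted with the library number in 2 ways, both of which use the same 8 libraries. With the number centred within its group, 16 members were called lower and 2, Ect2 and Mki67, higher, against 22% lower, 21% higher and 43% in either direction over all genes. This fit leaves the group means in place. With the number running from 1 to 8 as a linear drift over both groups, none was lower and 14 were higher, against 12.6% and 11.5% over all genes (24.1% in either direction), and the median log2 ratio was 0.17 in place of -0.099. None of the 7 genes called lower in the comparison of groups alone was called under the drift. Cenpa (-0.083), Birc5 (-0.093) and Bub1 (-0.043) stayed below 0, while Ube2c, Ccnb1, Kif23 and Gtse1 turned above 0. The 14 called higher were Plk1, Nek2, Bub1b, Ccna2, Cenpe, Cenpf, Kif11, Kif2c, Kif20b, Hmmr, Ckap2l, Ect2, Mki67 and Top2a. Ect2 had 0.45 and Mki67 0.42 under the drift, with adjusted p-values of 6.82e-05 and 2.37e-07. The drift and the group share most of the library number, and which of the 3 fits is apt cannot be told apart from these labels.

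**Figure D5:**
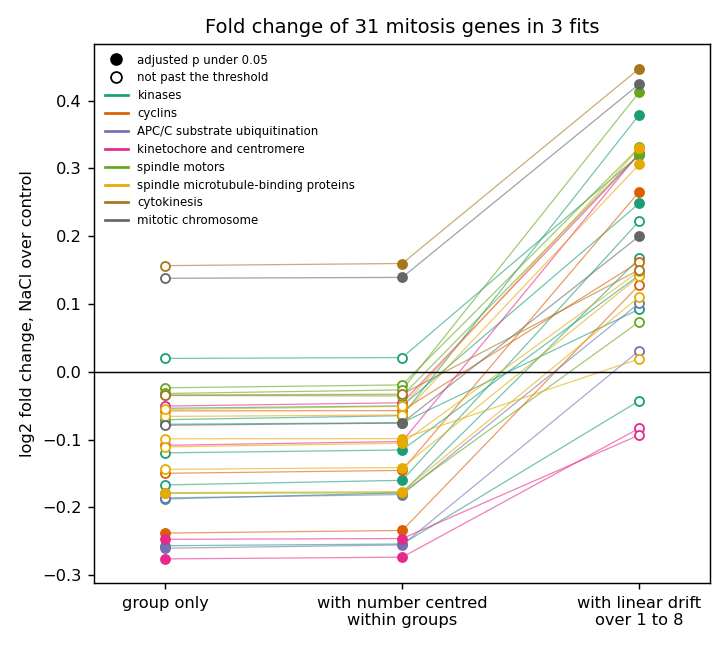
The y axis gives the log2 ratio (NaCl over control) of each of the 31 mitosis genes, coloured by role, in the fit with the group alone, with the library number centred within groups and with a linear drift over libraries 1 to 8 (x axis). Filled points have an adjusted p-value under 0.05, which holds for 7, 18 and 14 genes, and in the drift fit 28 of the 31 lie above 0.

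To describe how the members differed from each other, the median deviation of the 31 genes was subtracted in each library. These relative values have no test, because the members set the reference. Ect2 and Mki67 were then higher in all NaCl than in all control libraries, by 0.26 and 0.25 log2 units. Bub1b (0.13), Cenpf (0.060) and Ckap2l (0.055) were also above without overlap. Cenpa (-0.17), Ube2c (-0.15), Bub1 (-0.15), Birc5 (-0.14), Ccnb1 (-0.13) and Kif23 (-0.073) were below without overlap. The remaining 20 genes overlapped. With the same median subtracted from all genes tested, 19.9% were above and 4.77% below without overlap (24.7% in all). Bub1 and Bub1b, both counted among the kinases, lay on opposite sides.

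The rest of the mitotic pathway was followed with a list of 111 other genes, of which 110 were in the table and all 110 were tested. With NaCl 11 were called lower and 4 higher, where 17.2% and 16.9% of all genes were. Without control replicate 4, 20 were lower and 3 higher, where 16.7% and 15.9% of all genes were. Without control replicate 1, 7 were lower and 8 higher, where 15.9% and 15.5% were. With all libraries the median log2 ratio was -0.037. Along the library number 53 fell and 1 rose, where 6.22% and 6.95% of all genes did, and 102 of 110 slopes were below 0, against 51.1% of all genes, with a median of -0.060. Foxm1, a transcription factor that activates mitotic genes, had 79.4, 68.8, 66.1 and 61.7 CPM in control and 74.0, 65.4, 71.2 and 66.0 CPM in NaCl libraries. It did not pass the group comparison (edgeR adjusted p = 0.986) and fell along the library number with a slope of -0.077 (adjusted p = 0.00579). Under the linear drift Foxm1 was called higher, with 0.32 (adjusted p = 0.00852). Mybl2, the B-Myb factor of the same programme, had a log2 ratio of -0.15 (adjusted p = 0.0738). It was called lower without control replicate 3 (0.0456), without control replicate 4 (0.0335) and with the centred library number (0.0172). Under the linear drift Mybl2 turned above 0 and was not called (0.068, adjusted p = 0.704). Lin9, a subunit of the complex that B-Myb joins, rose, with 23.2 ± 2.06 CPM in control and 30.1 ± 2.25 CPM with NaCl (SD, n = 4 each) and a log2 ratio of 0.38 (adjusted p = 6.71e-04), or 0.67 under the linear drift (adjusted p = 5.90e-05).

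In the other roles, the gene with the lowest p-value was named. Hjurp, the chaperone that deposits CENP-A, had 161, 155, 155 and 155 CPM in control and 133, 141, 139 and 141 CPM in NaCl libraries. The groups were separate, with a log2 ratio of -0.17 (SE 0.034; edgeR adjusted p = 7.68e-04), and its slope on the library number was 0.0033 (adjusted p = 0.924). Under the linear drift the log2 ratio of Hjurp was -0.19, and it was still called lower. Kif15, a kinesin that supports bipolar spindles, fell, with 37.4 ± 4.38 CPM in control and 28.8 ± 1.76 CPM with NaCl (SD, n = 4 each) and a log2 ratio of -0.38 (adjusted p = 0.00127), and the midzone crosslinker gene Prc1 fell, with 152 ± 12.2 and 135 ± 3.63 CPM and a log2 ratio of -0.17 (adjusted p = 0.0123). Under the linear drift Kif15 (0.0022, adjusted p = 0.992) and Prc1 (0.048, adjusted p = 0.678) were not called and turned above 0. Anapc2, a core subunit of the APC/C, rose from 140.0 ± 5.99 to 164 ± 6.46 CPM (adjusted p = 2.65e-04), and was not called under the drift, with a log2 ratio of 0.063 (adjusted p = 0.508) in place of 0.23. The cohesin gene Stag1 rose from 81.5 ± 3.79 to 91.6 ± 3.45 CPM (adjusted p = 0.00561), and its log2 ratio was 0.17, or 0.27 under the drift (adjusted p = 0.00696). Sgo1, which protects cohesin at centromeres, did not pass the test (log2 ratio -0.15; adjusted p = 0.118), except with the centred library number (adjusted p = 0.0238). With the drift its log2 ratio was 0.17 and not called (adjusted p = 0.311).

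The promoters of the members were also described, and whether they relate to the slopes on the library number was not tested. Mitotic genes are known to be controlled through the cell cycle genes homology region (CHR), a short element bound by the MuvB complex, and through CCAAT boxes bound by NF-Y. Windows from 250 bases before to 50 bases after the start were available from RefSeq (GRCm38.p6) for 28 of the 31 genes, in 30 windows. The letters TTTGAA, on either strand, were present in 21 of the 30 windows (70.0%), against 17.9% of all promoters of the same length and 12.5% of those of genes in the table. The letters CCAAT, on either strand, were present in 24 (80.0%), against 37.4% and 37.6%. Both were present in 18 (60.0%), against 6.95% and 5.07%. In 106 windows of the other mitotic genes described above, TTTGAA was present in 41.5%, CCAAT in 59.4% and both in 30.2%, and these shares were not compared by a test. Neighbouring matches can share letters, as do a CCAAT and an ATTGG in the stretch CCAATTGG of Ube2c, and each was counted. A match is a description and not a site of binding. Genes of S phase, given at the end, fell along the library number as well, and 10.8% of their 37 windows held TTTGAA.

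The windows of 5 members are printed because they cover the 3 genes called lower with NaCl that hold both motifs (Cenpa, Ube2c and Kif23), the gene with the steepest slope on the library number (Plk1), and Mki67, whose fold change was on the other side. Each runs 5′ to 3′ along the gene, with every CHR match (TTTGAA, or TTCAAA on the other strand) and every CCAAT match (CCAAT, or ATTGG on the other strand) in capitals.
Cenpa, chr5:30666636-30666935, plus strand: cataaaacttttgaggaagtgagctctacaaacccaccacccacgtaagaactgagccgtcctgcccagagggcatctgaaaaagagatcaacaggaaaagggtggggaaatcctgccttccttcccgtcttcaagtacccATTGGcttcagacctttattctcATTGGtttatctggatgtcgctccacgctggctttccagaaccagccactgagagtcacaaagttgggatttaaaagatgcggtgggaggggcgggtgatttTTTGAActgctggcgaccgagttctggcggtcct
Ube2c, chr2:164769679-164769978, plus strand: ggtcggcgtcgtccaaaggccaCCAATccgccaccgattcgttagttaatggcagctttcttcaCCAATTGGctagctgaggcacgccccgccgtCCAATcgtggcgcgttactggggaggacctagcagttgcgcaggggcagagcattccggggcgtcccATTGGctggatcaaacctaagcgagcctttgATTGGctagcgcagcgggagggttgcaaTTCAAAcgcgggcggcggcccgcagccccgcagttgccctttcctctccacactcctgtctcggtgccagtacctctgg
Kif23, chr9:61946750-61947049, minus strand: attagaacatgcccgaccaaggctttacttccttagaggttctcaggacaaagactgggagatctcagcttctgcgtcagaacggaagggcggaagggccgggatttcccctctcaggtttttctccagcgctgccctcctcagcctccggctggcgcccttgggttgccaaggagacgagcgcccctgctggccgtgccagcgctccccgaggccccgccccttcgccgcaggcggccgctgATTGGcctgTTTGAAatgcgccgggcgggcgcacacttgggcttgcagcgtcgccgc
Plk1, chr7:122159185-122159484, plus strand: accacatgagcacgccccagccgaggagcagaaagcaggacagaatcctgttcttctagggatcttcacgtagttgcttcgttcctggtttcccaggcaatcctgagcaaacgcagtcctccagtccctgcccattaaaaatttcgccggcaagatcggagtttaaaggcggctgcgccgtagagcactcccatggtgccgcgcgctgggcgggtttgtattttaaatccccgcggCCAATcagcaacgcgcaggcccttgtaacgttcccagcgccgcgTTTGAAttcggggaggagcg
Mki67, chr7:135716330-135716629, minus strand: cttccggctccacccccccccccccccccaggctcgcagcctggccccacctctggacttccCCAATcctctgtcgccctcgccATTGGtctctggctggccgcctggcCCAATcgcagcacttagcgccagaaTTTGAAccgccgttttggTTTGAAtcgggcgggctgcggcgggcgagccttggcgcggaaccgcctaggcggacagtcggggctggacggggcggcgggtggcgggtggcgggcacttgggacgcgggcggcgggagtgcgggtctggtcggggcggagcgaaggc
In Cenpa, Kif23 and Plk1 the CHR letters lie after the annotated start, and in Ube2c and Mki67 they lie before it. Cenpa has 1 CHR match and 2 CCAAT matches, Kif23 and Plk1 have 1 of each, Ube2c has 1 and 6, and Mki67 has 2 and 3. Bub1, Ccnb1 and Gtse1, which were called lower, held CCAAT but not the letters TTTGAA in their windows, while Birc5 held neither.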

How the data were processed

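Bulk RNA was measured in 8 libraries (4 control, 4 NaCl) of the IMCD line. Raw counts per Ensembl gene were deposited by the authors as whole numbers. The submitters' processing notes name Trim Galore 0.6.7, STAR, DESeq2 1.34.0 and mm10, and the counting program and strandedness are not given in the sources used here. Reads on opposite strands of overlapping genes can therefore not be told apart. A second deposited table of normalized values was not used here.

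Tests used edgeR 4.0.16 under R 4.3.3 (filterByExpr at a minimum count of 10, 14024 of 15288 genes tested, 0.0191% of counts removed, TMM factors, robust quasi-likelihood F test, Benjamini-Hochberg adjustment over all genes tested). SE is the log2 fold change divided by the square root of F. Called means an adjusted p-value below 0.05. The slope fits added the library number centred within its group, and its interaction with the group. DESeq2 1.42.0 and limma 3.58.1 (voom) were alternatives, with other scalings, filters, thresholds and left-out libraries. The scripts were tested on simulated counts. Not passing a test does not show that a gene was unchanged.

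Values in all libraries are given for each called member and for the member with the lowest p-value of each role, and for the 5 lowest slope p-values. Of the other mitotic genes, the lowest p-value of each role, with Foxm1 and Mybl2, was named with group means, library values or a log2 fold change. The members, lists and tests were chosen with earlier results of these data known. Exon lengths, overlaps and shared sequence (blastn 2.17.0, at least 75 bases at 98% identity) came from GENCODE M21, which like mm10 is on GRCm38. Depth was 35.29 to 47.57 M (1000000) counts per library.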

Additional observations from a re-analysis of the deposited data

Results flagged for a closer look

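Of 92 sets of 4 replicate values, 7 held a replicate that stood apart from the remaining 3 by Dixon's criterion, and chance alone gives about 4.6. In NaCl replicate 8, Plk1 had 78.06 CPM, beside 94.21 to 96.17 CPM, Bub1b had 114.0 CPM against 131.3 to 134.8 CPM, and Tpx2 had 148.8 CPM against 167.8 to 171.7 CPM. In control replicate 1, Anln had 298.6 CPM where the other controls had 256.6 to 262.5 CPM, and Hjurp had 160.7 CPM against 154.6 to 155.3 CPM. Total counts stood apart in control replicate 1, at 47.57 M against 41.77 to 42.73 M counts, and in NaCl replicate 5, at 35.29 M against 41.37 to 42.39 M counts. The mitosis genes that stood apart in NaCl replicate 8 were low and Anln in control replicate 1 was high, the same sides on which these libraries stood for most of the 31 genes.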

How the results depend on the processing

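No paired analysis was possible because the groups share no replicate number. With 3 other scalings, no filter, 10 counts in every library and limma-voom, the counts of called mitosis genes stayed within 1.5 times their values and 28 of 31 log2 fold changes stayed below 0. DESeq2 called 1 mitosis gene higher, Mki67. At an adjusted p-value under 0.01, 3145 genes, 4 mitosis genes lower and 9 other mitotic genes (6 lower) were called. At that threshold 11.4% of all genes were lower and 11% higher. Leaving out 1 library at a time gave 5 to 13 mitosis genes lower, 0 to 2 higher, 14 to 28 called on the slope, 11 to 23 other mitotic genes, of which 7 to 20 were lower and 3 to 8 higher, and medians from -0.13 to -0.042. Over all genes these fits called 14.4 to 16.7% lower, 13.9 to 15.9% higher and 2.32 to 6.27% falling on the slope. The count of 13 lower was without control replicate 4. Of the 7 called genes, 5 were called in all 8 of these fits. Log2 fold changes crossed 0 in these fits for Plk1 (-0.13 to 0.012), Nek2 (-0.090 to 0.019), Cenpf (-0.11 to 0.0051), Kif11 (-0.073 to 0.025), Kif2c (-0.073 to 0.045), Kif20b (-0.11 to 0.026), Ckap2l (-0.12 to 0.0050), Anln (-0.060 to 0.016), Bub1b (-0.024 to 0.071) and Foxm1 (-0.050 to 0.075). Foxm1 was -0.0018 with no filter. Without control replicate 1 and NaCl replicate 5, 2 mitosis genes were higher, 6 other mitotic genes lower and 17 mitosis genes called on the slope, with Kif2c at 0.029 and Anln at 0.011, and 7 mitosis genes were lower. Of all genes 15.1% were lower, 14.6% higher and 1.95% falling. Without control replicate 1 and NaCl replicate 8, chosen after seeing the data, 5 mitosis genes were lower and 2 higher, 6 other mitotic genes lower and 10 higher, and 2 mitosis genes were called on the slope, where 15.7% of all genes were lower, 15.1% higher and 0.292% falling. The calls of Kif23 (-0.092, adjusted p = 0.121), Gtse1 (-0.11, 0.157) and Prc1 (-0.11, 0.0805) ended there in edgeR. In the same fit the fold changes turned positive for Plk1 (0.081), Nek2 (0.050), Cenpe (0.0092), Cenpf (0.048), Kif11 (0.072), Kif2c (0.081), Kif20b (0.072), Hmmr (0.029), Ckap2l (0.049), Anln (0.038) and Top2a (0.0079), and the slopes for Birc5 (0.014) and Nusap1 (0.0049). With the number centred within groups, 16 mitosis genes were lower and 2 higher, and 35 other mitotic genes were called (25 lower, 10 higher). That fit called 22% of all genes lower and 21% higher. With the linear drift, 0 mitosis genes were lower and 14 higher, 39 other mitotic genes were called (2 lower, 37 higher), and the median was 0.17. Over all genes the drift fit called 12.6% lower and 11.5% higher. The drift turned Cdk1 (0.092), Aurka (0.17), Aurkb (0.14), Plk1 (0.38), Nek2 (0.25), Ttk (0.22), Ccna2 (0.27), Ccnb1 (0.13), Ccnb2 (0.16), Cdc20 (0.10), Ube2c (0.031), Cenpe (0.32), Cenpf (0.32), Kif11 (0.32), Kif2c (0.33), Kif20b (0.41), Kif23 (0.074), Nusap1 (0.019), Tpx2 (0.14), Hmmr (0.31), Tacc3 (0.15), Ckap2l (0.33), Gtse1 (0.11), Anln (0.15), Top2a (0.20), Kif15 (0.0022), Mybl2 (0.068), Prc1 (0.048) and Sgo1 (0.17) above 0, and the cause was not tested. Depth limits the members little, since counting error was at most 3.03%.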

Other observations

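Genes of S phase, which precedes mitosis, were also measured. Of 39 listed genes of DNA replication, all 39 were tested, 2 were called lower and 2 higher with NaCl in edgeR's quasi-likelihood test, where 17.2% and 16.9% of all genes were, and the median log2 fold change was -0.017. Along the library number 32 of the 39 fell and none rose, against 6.22% and 6.95% of all genes, with a median slope of -0.078, beside -0.072 for the 31 mitosis genes. Their summed level was 4660, 4318, 3912 and 3794 CPM in control replicates 1 to 4 and 4390, 4346, 4190 and 3951 CPM in NaCl replicates 5 to 8. With a linear drift over libraries 1 to 8, 29 were called higher and none lower, against 11.5% and 12.6% of all genes. The letters TTTGAA were present in 10.8% of 37 promoter windows of these genes, in 41.5% of the 106 windows of the other mitotic genes and in 70.0% of the 30 windows of the mitosis genes. CCAAT was present in 59.5%, 59.4% and 80.0% of the same windows, against 37.6% for genes in the table.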
